A study of Homo sapiens with 6 samples.

Results

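The transforming growth factor beta (TGF-beta) ligands, the latent binding proteins that hold them in the matrix and the receptors that read them were chosen by gene symbol, as TGFB1, TGFB2, TGFB3, LTBP1, LTBP2, LTBP3, LTBP4, TGFBR1, TGFBR2 and TGFBR3. They are 10 genes of the 62754 in the count table, and all 10 were among the 16931 genes with enough counts to be tested. RNA was sequenced from HFF-2 cells, a line of human dermal fibroblasts (HDFs), on day 4 of exposure to 40 μM tert-butyl hydroperoxide (tBHP, an organic peroxide used as an oxidant) for 1 h, 2 times per day. The 3 TFEB-KD libraries came from HDFs carrying a lentiviral short hairpin RNA against TFEB, a transcription factor of lysosomal and autophagy genes, and the 3 SCR libraries from HDFs carrying a scramble hairpin, whose genotype is labelled WT. Both groups were stressed with tBHP and selected with puromycin, and no library of unstressed HDFs was analysed here. The comparison therefore addresses which TGF-beta components differed with TFEB knockdown during the stress phase. A single hairpin served each group, so loss of TFEB and other effects of that hairpin cannot be told apart. The study's methods describe the replicates of its experiments in general as biologically independent, while the labels do not say which cultures these libraries came from, and p-values measure the spread between them. In such bulk RNA, fewer expressing cells and less RNA per cell cannot be told apart either.

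TGF-beta is made as a precursor that furin-type proteases cut, and the mature dimer is secreted still wrapped in its own propeptide. Latent TGF-beta binding proteins (LTBPs) are joined to that propeptide and tether the complex to fibrillin and fibronectin fibres, from which integrins, thrombospondin and proteases release the ligand. Free ligand brings TGFBR2 and TGFBR1 together at the cell surface, with TGFBR3 (betaglycan) as a co-receptor that matters most for TGF-beta 2, and SMAD2, SMAD3 and SMAD4 carry the signal to the nucleus. In dermal fibroblasts the pathway is known for driving collagen and contractile genes.

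The libraries held between 38769620 and 55135426 counts. TFEB itself was at 15.0, 14.9 and 16.4 CPM (the count relative to the library's size, which was first adjusted by TMM factors) in SCR HDFs and at 9.62, 8.20 and 8.87 CPM in TFEB-KD HDFs. The groups did not overlap, and the log2 fold change, given throughout as TFEB-KD over SCR, was -0.80 (SE 0.077, adjusted p = 1.37e-05). All 10 fibroblast markers checked were detected, with COL1A1 the highest at a mean of 8947 CPM in SCR HDFs. Their summed level was lower in TFEB-KD HDFs, at 14099, 14029 and 14100 CPM against 23502, 24624 and 25807 CPM, with 6 of the 10 called lower (COL1A1, COL1A2, PDGFRB, THY1, LUM and FAP) and PDGFRA and DCN called higher. The collagens weigh most in this drop, since COL1A1 went from a mean of 8947 to 3116 CPM and COL1A2 from 7436 to 3147 CPM. VIM, at means of 5654 CPM in SCR and 5607 CPM in TFEB-KD HDFs, and S100A4 were not called. COL1A1, COL1A2 and DCN also stand in the pathway lists used further on, and the part of this shift in the values that follow was not tested. Defining markers of other skin cells were at or near 0. The 5 endothelial markers, most abundant in TEK, summed to at most 1.53 CPM in any library, the 4 melanocyte markers (PMEL most abundant, TYR at 0 in every library) to at most 1.38 CPM, and the 6 myeloid markers (CSF1R most abundant) to at most 1.13 CPM. The 5 keratinocyte markers summed to 96.1 to 114 CPM, of which all but 0.375 CPM in SCR and 0.541 CPM in TFEB-KD HDFs was KRT10, and none of these 5 was called. Of the other 3 lists, TEK (log2 fold change -1.36, adjusted p = 0.012) and PMEL (log2 fold change -1.07, adjusted p = 0.016) were called lower, both at these low levels.

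Genes were called where the adjusted p was under 0.05 and the absolute log2 fold change was over 0.36, the thresholds of the study, and 24.9% of all genes tested were called in one direction or the other. Among the ligands, latent binding proteins and receptors, 3 of 10 were called, with TGFB1 and LTBP1 higher and TGFB2 lower in TFEB-KD HDFs. By direction, 9.99% of all genes tested were called higher and 15.0% lower, so that 2 of 10 higher and 1 of 10 lower lie near what the whole table shows, and nothing about the group as such is read from the count. An adjusted p under 0.05 at any fold change was found for 6 of the 10, 3 in each direction, against 44.7% of all genes tested (20.7% higher and 24.0% lower). The groups of CPM values did not overlap for 7 of the 10, against 55.4% of all genes tested. The median log2 fold change was 0.018 over the 10 genes and 0.0033 over all genes tested.

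**Figure D1:**
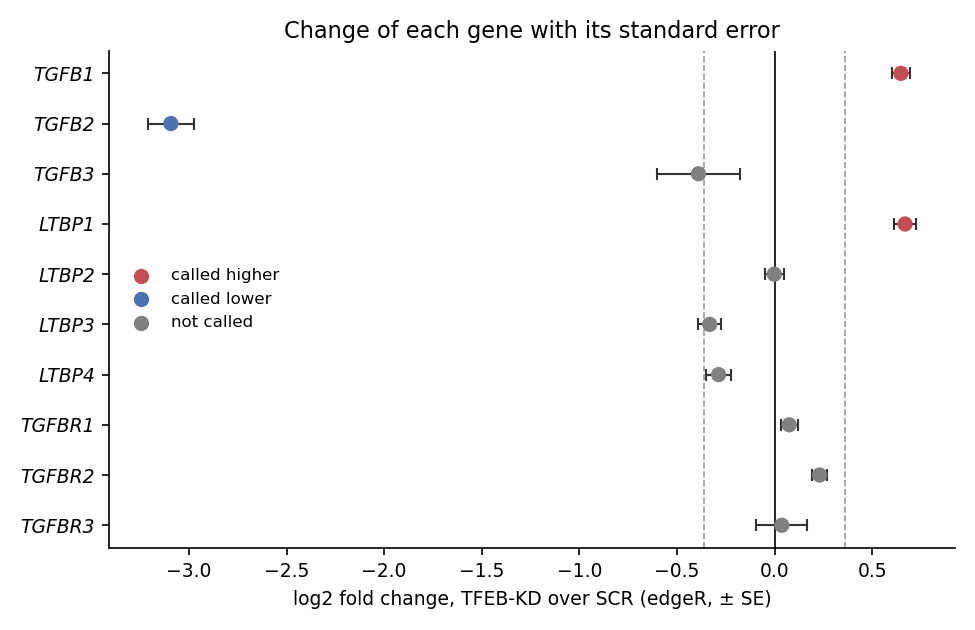
Log2 fold change of each gene (x axis, TFEB-KD over SCR, edgeR) with its standard error as a bar, for the 10 genes on the y axis. Dashed lines mark the fold threshold of 0.36 in each direction, and the decrease of TGFB2 at -3.09 lies far outside the range of the other 9 genes, which run from -0.39 to 0.67.

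The ligands went in opposite directions. TGFB2, which encodes the isoform that depends most on betaglycan for binding, had counts of 624, 440 and 671 in SCR HDFs and of 63, 71 and 71 in TFEB-KD HDFs. On the CPM scale these were 11.5, 11.7 and 14.1 against 1.44, 1.60 and 1.34. Every TFEB-KD library was far below every SCR library, and the means fell from 12.4 ± 1.42 CPM (SD, n = 3) to 1.46 ± 0.132 CPM (SD, n = 3). The log2 fold change was -3.09 (SE 0.12, adjusted p = 1.99e-08), a level 8.53 times lower. Among all genes tested, 66 (0.39%) were called lower with a log2 fold change below -3. TGFB2 lies on the plus strand of chromosome 1 from 218345336 to 218444619 (GENCODE 44, GRCh38). Its 3-prime part overlaps the lncRNA TGFB2-OT1 on the same strand, and adding that gene's reads to TGFB2 gave a log2 fold change of -3.12.

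TGFB1, the isoform known for its abundance in platelets and bone, was at 217, 223 and 223 CPM in SCR HDFs and at 359, 326 and 354 CPM in TFEB-KD HDFs. All TFEB-KD values lay above all SCR values. The means were 221 ± 3.22 CPM (SD, n = 3) and 346 ± 17.5 CPM (SD, n = 3), with a log2 fold change of 0.65 (SE 0.047, adjusted p = 1.52e-06) and a 95% interval from 0.56 to 0.74. TGFB1 lies on the minus strand of chromosome 19 from 41301587 to 41353922. It contains the lncRNA ENSG00000286177 on its own strand, and with the reads of that gene added the log2 fold change was 0.66.

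TGFB3, an isoform known from palate fusion and scarless repair, had few reads, with counts of 58, 60 and 67 in SCR HDFs and of 38, 46 and 62 in TFEB-KD HDFs. In CPM it was at 1.07, 1.59 and 1.40 in SCR and at 0.870, 1.04 and 1.17 in TFEB-KD, and the groups overlapped. The log2 fold change of -0.39 (SE 0.21, adjusted p = 0.165) did not pass the test, and its 95% interval ran from -0.81 to 0.03. TGFB3 lies on the minus strand of chromosome 14 from 75958097 to 75983011.

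The 120 bases in front of the start sites of these ligands and of LTBP1 are shown because the genes differed in direction and because TFEB and related factors bind E-boxes. They were read 5′ to 3′ on each gene's own strand from RefSeq promoter windows (GRCh38.p14). For a gene with several windows only the first listed is shown. Which start sites were in use in these HDFs was not tested. Capitals mark CACGTG, the E-box core, in TGFB2 and TGFB3, and TGACGTCA, a cAMP response element, in LTBP1.
TGFB1 (chr19:41353923-41354042, minus strand): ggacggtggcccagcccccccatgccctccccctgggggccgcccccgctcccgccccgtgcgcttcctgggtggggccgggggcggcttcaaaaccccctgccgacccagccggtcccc
TGFB2 (chr1:218345216-218345335, plus strand): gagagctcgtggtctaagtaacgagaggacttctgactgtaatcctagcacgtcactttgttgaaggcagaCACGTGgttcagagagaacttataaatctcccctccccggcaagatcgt
TGFB3 (chr14:75983012-75983131, minus strand): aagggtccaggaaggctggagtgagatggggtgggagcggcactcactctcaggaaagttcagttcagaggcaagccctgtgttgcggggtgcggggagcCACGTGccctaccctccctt
LTBP1 (chr2:32946833-32946952, plus strand): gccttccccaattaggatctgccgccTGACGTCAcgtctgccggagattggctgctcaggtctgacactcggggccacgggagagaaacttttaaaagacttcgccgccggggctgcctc
The E-box core began 49 bases before the start site of TGFB2, which fell, and 20 bases before that of TGFB3, which was not called. The stretch of TGFB1 holds no CACGTG and is 80.8% G and C, against 49.2% for TGFB2, 62.5% for TGFB3 and 60.8% for LTBP1.

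Motifs were searched on both strands in the whole windows of 300 bases (250 before to 50 after the start), of which 23 belonged to the 10 genes and 35116 to all genes. CACGTG was in 7.26% of all windows and in 2 of the 23 windows of the 10 genes, in TGFB2 and TGFB3. TCACGTGA, the longer E-box of lysosomal gene promoters, which contains CACGTG, was in 0.98% of all windows and in no window of the 10 genes. TGACGTCA was in 1.85% of all windows and in 1 of the 23, in LTBP1, 94 bases before the start site used above. The AP-1 element, TGACTCA or TGAGTCA on the other strand, was in 4.95% of all windows. Among the 23 it was in 1, in TGFBR2, 6 bases before the start site of that window. GTCTAGAC, the palindromic SMAD element, was in 0.202% of all windows and in none of the 10 genes. With so few matches, nothing about the 10 genes as a group is read from these shares. A match describes the letters in these windows and not binding.

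Levels of different genes were compared in TPM, which is scaled for transcript length. TGFB1 was the most abundant of the 10 genes in all 6 libraries, at 112, 108 and 111 TPM in SCR HDFs and 183, 161 and 177 TPM in TFEB-KD HDFs. TGFB2 was at 2.52, 3.31 and 2.98 TPM in SCR and at 0.317, 0.341 and 0.287 TPM in TFEB-KD HDFs, so it went from the eighth place of the 10 to the last, below TGFB3, in every library of the group. TGFB3 was at 0.502 ± 0.0946 TPM (SD, n = 3) in SCR and at 0.384 ± 0.0501 TPM (SD, n = 3) in TFEB-KD HDFs. It was below TGFB2 in every SCR library without overlap, and above TGFB2 within each TFEB-KD library, where the values of the pair overlapped between libraries (0.331 TPM for TGFB3 in replicate 1 and 0.341 TPM for TGFB2 in replicate 2). The order of the more abundant genes was less clear, since LTBP1 and LTBP2 overlapped in SCR HDFs, at 80.2 ± 3.51 and 83.8 ± 1.37 TPM (SD, n = 3 each), and were apart in TFEB-KD HDFs, at 130 ± 13.6 and 85.1 ± 5.52 TPM (SD, n = 3 each). Below them came LTBP3, TGFBR2, LTBP4 and TGFBR1, and LTBP3 and TGFBR2 overlapped in TFEB-KD HDFs.

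**Figure D2:**
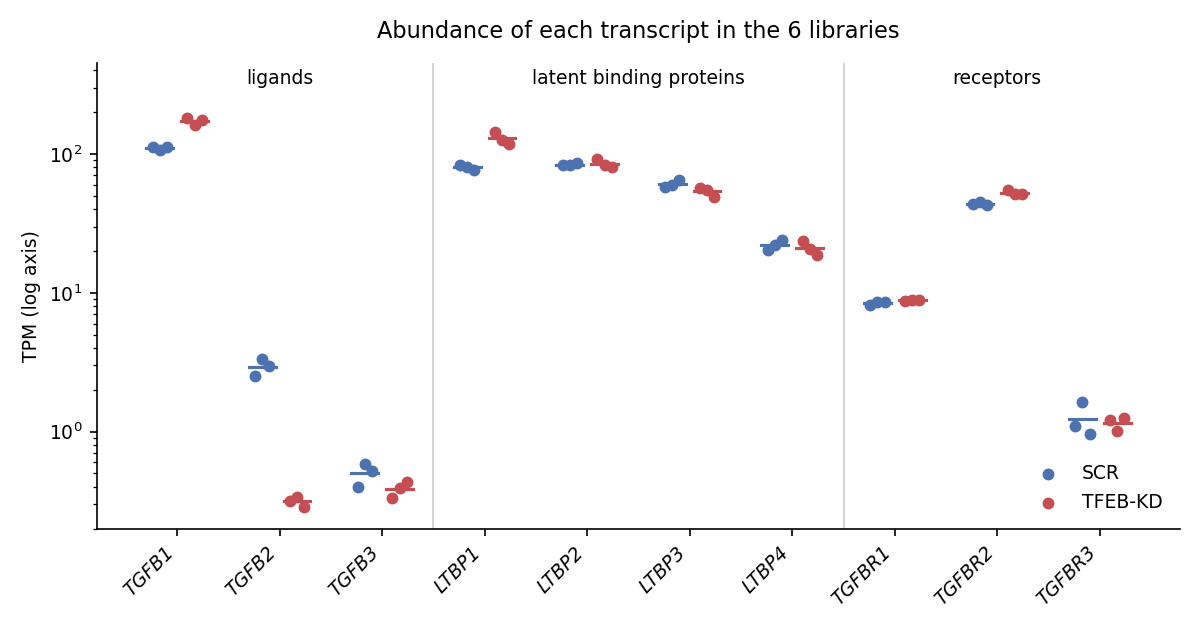
Level of each of the 10 genes in every library, in TPM on a logarithmic y axis, with genes grouped by role on the x axis. Points are libraries (blue SCR, red TFEB-KD) and horizontal lines are group means, and TGFB2 falls from a mean of 2.93 to 0.315 TPM while TGFB1 rises from 110.2 to 173 TPM.

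The summed ligand level was 113.6 ± 1.85 TPM (SD, n = 3) in SCR and 174 ± 11.01 TPM (SD, n = 3) in TFEB-KD HDFs, a ratio of 1.53 (two-sided p = 0.1 by an exact permutation test over libraries, which cannot give a lower p with 3 in each group). TGFB1 made up 97.5%, 96.5% and 97.0% of that sum in SCR HDFs and 99.6%, 99.5% and 99.6% in TFEB-KD HDFs. The share of TGFB2 went from 2.59% ± 0.385 to 0.182% ± 0.0254 (SD, n = 3 each), without overlap (exact permutation test, p = 0.1). Put as a ratio, TGFB1 exceeded TGFB2 by 44.3, 32.5 and 37.4 times in SCR and by 575, 473 and 615 times in TFEB-KD HDFs. These shares depend on the unit: in CPM, which gives the longer TGFB2 transcripts more weight, the difference was -4.87 percentage points for TGFB2 and 5.15 for TGFB1, against -2.41 and 2.63 in TPM, with the same directions, and ratios taken in CPM would be smaller too. TGFB3 took 0.443% ± 0.0890 and 0.222% ± 0.0353 of the sum (SD, n = 3 each). Its shares did not overlap between the groups while its own levels did, and the sum by which a share is divided was larger in TFEB-KD HDFs.

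Of the latent binding proteins, LTBP1 was called and the other 3 were not. LTBP1, the form best known for carrying TGF-beta into the matrix, was at 324, 328 and 321 CPM in SCR HDFs and at 563, 505 and 479 CPM in TFEB-KD HDFs. The TFEB-KD libraries varied more but all lay above all SCR libraries. The log2 fold change was 0.67 (SE 0.058, adjusted p = 5.86e-06), close in size to that of TGFB1. LTBP1 lies on the plus strand of chromosome 2 from 32946953 to 33399509.

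LTBP2, which is a fibrillin-binding member that does not bind latent TGF-beta, was at 523, 531 and 548 CPM in SCR and at 567, 518 and 514 CPM in TFEB-KD HDFs (chromosome 14, 74498183 to 74612378, minus strand). The groups overlapped fully. Its log2 fold change was -0.0015 (SE 0.049, adjusted p = 0.983), with a 95% interval from -0.10 to 0.09.

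LTBP3, which binds the latent complex and is known from tooth and bone disorders, was at 136, 152 and 161 CPM in SCR and at 123, 118 and 116 CPM in TFEB-KD HDFs (chromosome 11, 65538559 to 65558930, minus strand). All TFEB-KD values lay below all SCR values. The log2 fold change was -0.33 (SE 0.059, adjusted p = 0.00105), under the fold threshold, and with SCR replicate 1 left out it was -0.40 and LTBP3 was called lower. LTBP4, which is needed for elastic fibre assembly, was at 28.4, 31.2 and 33.2 CPM in SCR and at 24.1, 26.1 and 25.8 CPM in TFEB-KD HDFs (chromosome 19, 40592883 to 40629818, plus strand). Again the groups did not overlap, and the log2 fold change of -0.29 (SE 0.065, adjusted p = 0.00432) was under the fold threshold.

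For LTBP3 and LTBP4 the picture depended on the unit. In TPM the groups of LTBP3 lay next to each other without overlap, at 57.7, 59.3 and 65.3 against 57.1, 54.8 and 49.0 TPM. Those of LTBP4 overlapped, at 20.2, 22.3 and 24.05 against 23.4, 20.6 and 18.6 TPM. Beside the scaling of each library, the units differ by the mean length of the transcripts that reads were assigned to, and that length changed by -8.14% in TFEB-KD HDFs for LTBP3 and by -10.8% for LTBP4. Relative to the SCR mean, that length was 0.906, 0.890 and 0.959 for LTBP3 and 0.765, 0.924 and 0.988 for LTBP4 in TFEB-KD replicates 1 to 3. Over 11586 genes with at least 100 counts in every library, the median absolute change of this length was 2.08% and the 90th percentile 10.1%. When these lengths entered the edgeR fit, the log2 fold change was -0.21 for LTBP3 (adjusted p = 0.0439) and -0.12 for LTBP4 (adjusted p = 0.376). LTBP1 showed no such shift, with a change of 0.0763%, and TGFB1 changed by 1.31%. For TGFB2 the length lay between 1.07 and 1.12 in 5 libraries and at 0.825 in SCR replicate 2.

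The summed level of the 4 latent binding proteins was 247.0 ± 3.92 TPM (SD, n = 3) in SCR and 289 ± 25.3 TPM (SD, n = 3) in TFEB-KD HDFs, a ratio of 1.17 (exact permutation test, two-sided p = 0.1). LTBP1 took 34.2%, 32.8% and 30.5% of the sum in SCR HDFs and 45.7%, 44.4% and 44.3% in TFEB-KD HDFs. The mean share of LTBP2 went from 33.9% to 29.4%, that of LTBP3 from 24.6% to 18.5% and that of LTBP4 from 8.97% to 7.21%, each without overlap (exact permutation test, p = 0.1 for each). The level of LTBP2 itself did not fall, with means of 83.8 TPM in SCR and 85.1 TPM in TFEB-KD HDFs. The sum by which these shares are divided was larger in TFEB-KD HDFs, so a lower share need not mean a lower level. In CPM the difference for LTBP4 was -0.84 percentage points, against -1.76 in TPM. The ratio of LTBP1 to LTBP2 was 0.957 ± 0.0560 in SCR and 1.52 ± 0.0605 in TFEB-KD HDFs (SD, n = 3 each), again without overlap. In SCR HDFs the pair was thus present at nearly equal levels, and in TFEB-KD HDFs LTBP1 was the more abundant in each library.

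**Figure D3:**
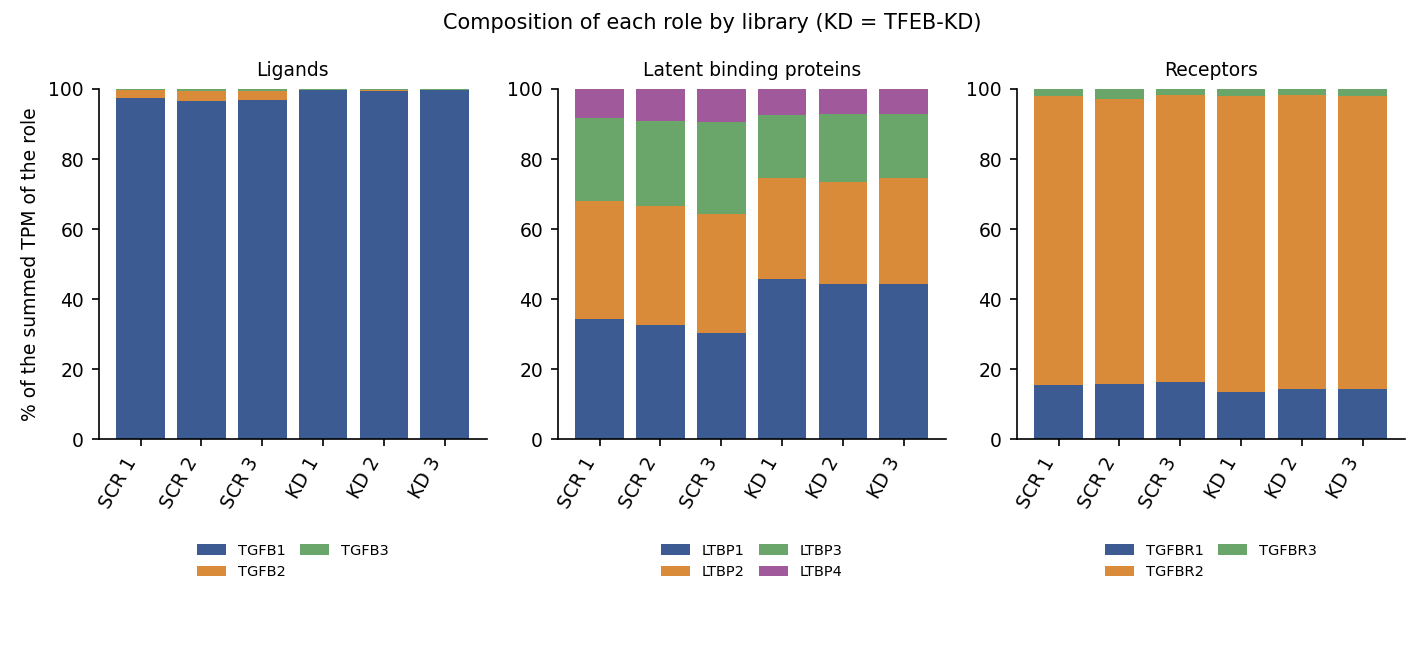
Share of each gene in the summed TPM of its role (y axis, percent) in each of the 6 libraries (x axis), for ligands, latent binding proteins and receptors. TGFB1 fills at least 96.5% of every ligand bar, the LTBP1 share is larger in each TFEB-KD library than in any SCR library, and the receptor bars differ by about 2.10 percentage points for TGFBR2.

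No receptor was called in either direction. TGFBR2, the kinase that binds ligand and activates TGFBR1, was at 149, 153 and 149 CPM in SCR HDFs and at 182, 174 and 173 CPM in TFEB-KD HDFs (chromosome 3, 30606601 to 30694142, plus strand). All TFEB-KD values were higher, with a log2 fold change of 0.23 (SE 0.040, adjusted p = 9.08e-04) that stayed under the fold threshold. TGFBR1, the kinase that phosphorylates SMAD2 and SMAD3, was at 39.6, 40.9 and 41.5 CPM in SCR and at 42.2, 42.7 and 43.4 CPM in TFEB-KD HDFs (chromosome 9, 99104038 to 99154192, plus strand). The groups were narrow and lay side by side without overlap, but the log2 fold change of 0.075 (SE 0.044, adjusted p = 0.189) did not pass the test, and its 95% interval ran from -0.01 to 0.16. TGFBR3 was at 5.64, 6.75 and 4.74 CPM in SCR and at 6.02, 5.02 and 6.42 CPM in TFEB-KD HDFs (chromosome 1, 91680343 to 91906335, minus strand). These values overlapped, with a log2 fold change of 0.037 (SE 0.13, adjusted p = 0.849) and a 95% interval from -0.22 to 0.29.

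Summed over the receptors, the level was 53.5 ± 1.31 TPM (SD, n = 3) in SCR and 62.4 ± 1.99 TPM (SD, n = 3) in TFEB-KD HDFs, a ratio of 1.17 (exact permutation test, two-sided p = 0.1). TGFBR2 supplied most of it, with a mean share of 81.9% in SCR and 84.0% in TFEB-KD HDFs (exact permutation test, p = 0.1). TGFBR1 took 15.8% and 14.1% (p = 0.1), and TGFBR3 took 2.29% and 1.86% with overlap (exact permutation test, p = 0.4). The level of TGFBR1 itself did not fall, with means of 8.46 TPM in SCR and 8.82 TPM in TFEB-KD HDFs, and the sum by which its share is divided was larger. TGFBR2 exceeded TGFBR1 by 5.36, 5.17 and 5.02 times in SCR and by 6.23, 5.80 and 5.82 times in TFEB-KD HDFs.

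The rest of the pathway was described from 5 lists written by role, and each count below stands beside the 9.99% called higher and 15.0% called lower among all genes tested. Genes that process, anchor or release the latent complex were called lower more often than higher. Of 24 listed, ITGB6 and MMP9 had too few counts, and of the 22 tested 2 were called higher and 12 lower (54.5%), with a median log2 fold change of -0.44. The fibres to which the complex is tethered were among those that fell. FBN1, which encodes fibrillin-1, was at 837, 901 and 905 CPM in SCR and at 545, 454 and 430 CPM in TFEB-KD HDFs, a log2 fold change of -0.89 (SE 0.079). FBN2 fell by 1.56 (SE 0.074) and FN1, which encodes fibronectin, by 0.72 (SE 0.070) on the log2 scale.

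Of the genes tied to release, some were called lower and others were not. The 8 genes of the whole list that were tested and not called were FURIN, EMILIN1, NRROS, ITGB3, MMP2, MMP14, PLAT and PLAU. Their log2 fold changes ran from -0.35 for MMP2 to 0.34 for NRROS, with MMP14 at 0.12, PLAT at -0.10 and PLAU at -0.019. ITGAV, the alpha chain of the integrins that pull latent TGF-beta open, was at 102, 105 and 111 CPM in SCR and at 58.3, 55.0 and 53.5 CPM in TFEB-KD HDFs, a log2 fold change of -0.93 (SE 0.049). ITGB8, a beta chain that pairs with ITGAV, had a log2 fold change of -2.01 (SE 0.47, adjusted p = 0.00485), but on counts of only 23, 10 and 29 against 7, 3 and 5, and it was not called on the TPM scale. THBS1, the thrombospondin that can activate the latent ligand, was at 5422 ± 425 CPM (SD, n = 3) in SCR and 3570.4 ± 215 CPM (SD, n = 3) in TFEB-KD HDFs, a log2 fold change of -0.60 (SE 0.063). LRRC32, which anchors latent TGF-beta to cell membranes, fell by 1.38 (SE 0.15) on the log2 scale. FURIN, the protease that cuts the precursor, was at 201, 208 and 197 CPM against 203, 195 and 202 CPM, and with a log2 fold change of -0.015 (SE 0.042, adjusted p = 0.799) the groups overlapped. The called increases were ADAMTS1, at 0.64, and PCSK6, at 0.42, of which PCSK6 was not called with SCR replicate 1 or TFEB-KD replicate 1 left out.

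**Figure D4:**
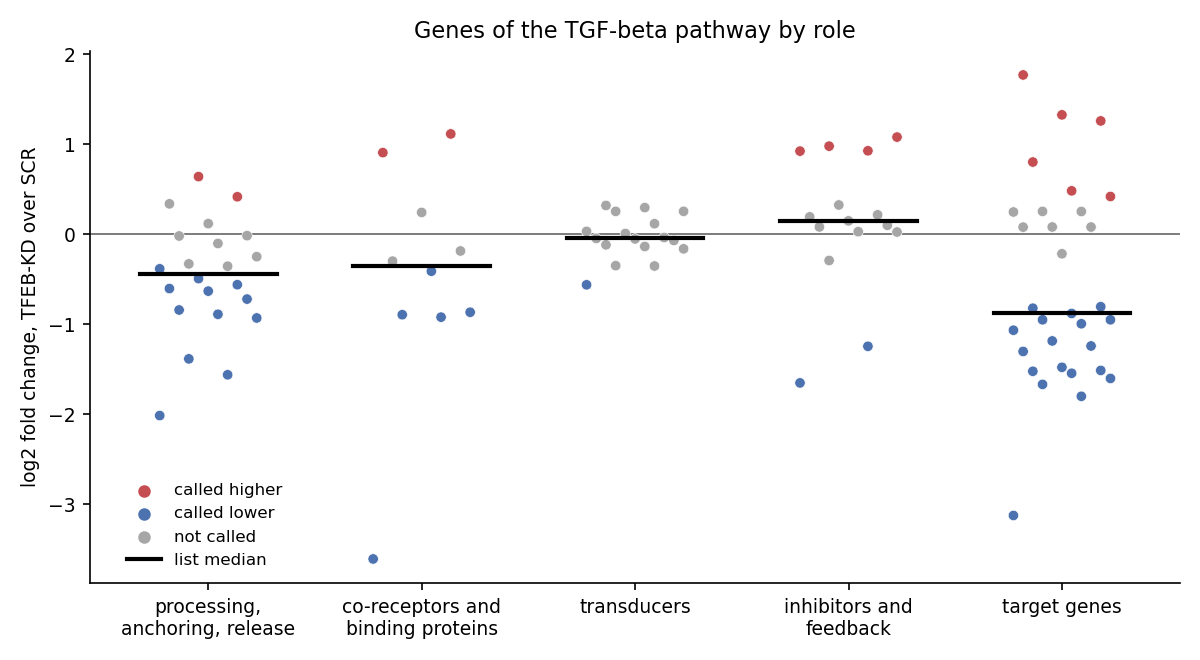
Log2 fold change (y axis, TFEB-KD over SCR) of every tested gene in the 5 pathway lists (x axis), with 1 point per gene, colour for the call and a black bar for the list's median. Medians lie at -0.44, -0.35, -0.046, 0.15 and -0.88 from left to right.

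Of the 10 co-receptors and extracellular binding proteins, 2 were called higher and 5 lower, with a median of -0.35. DCN, which encodes decorin, a proteoglycan that binds TGF-beta, was at 150, 137 and 172 CPM in SCR and at 308, 347 and 340 CPM in TFEB-KD HDFs, a log2 fold change of 1.12 (SE 0.079, adjusted p = 1.35e-06). The related proteoglycans went the other way. ASPN, which encodes asporin, fell from 2.66, 1.99 and 3.44 CPM to 0.206, 0.248 and 0.207 CPM (log2 fold change -3.61, SE 0.27, on 9 to 11 counts per TFEB-KD library), and FMOD, which encodes fibromodulin, fell by 0.92 (SE 0.098) on the log2 scale. NRP1, a co-receptor of several growth factors, was the other gene called higher, at 0.91. ENG, which encodes endoglin, had a log2 fold change of -0.30 (SE 0.040, adjusted p = 1.57e-04), under the fold threshold.

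Few of the transducers between receptor and nucleus were called. Of 17 tested, none was called higher and only SMAD3 was called lower, with a median of -0.046. The number at an adjusted p under 0.05 without the fold threshold was 9, of which 4 were higher and 5 lower, near the 44.7% (20.7% higher and 24.0% lower) of all genes tested. SMAD3, a receptor-activated SMAD that binds DNA, was at 100, 118 and 122 CPM in SCR and at 80.2, 76.1 and 74.5 CPM in TFEB-KD HDFs (log2 fold change -0.56, SE 0.069, adjusted p = 8.26e-05). SMAD2 had a log2 fold change of -0.14 (SE 0.044, adjusted p = 0.0282), and SMAD4, the partner shared with other pathways of the family, of -0.051 (SE 0.043, adjusted p = 0.363). The count of lower transducers was 3 with SCR replicate 2 left out, when MAP3K7 and DAB2 were called too, and 2 with SCR replicate 1 left out, when DAB2 was.

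Among 15 inhibitors and feedback genes, 4 were called higher and 2 lower, with a median of 0.15. The increases were the inhibitory SMADs and a pair of well known feedback genes. SMAD7, which blocks TGFBR1, was at 37.9, 37.8 and 40.1 CPM in SCR HDFs and at 73.9, 70.6 and 75.8 CPM in TFEB-KD HDFs, a log2 fold change of 0.93 (SE 0.047). The log2 fold change was 0.98 (SE 0.076) for SMAD6, 0.92 (SE 0.045) for SKIL, a SMAD corepressor, and 1.08 (SE 0.053) for PMEPA1, a membrane protein that sequesters SMADs. In all 4 the groups were apart. NEDD4L, a ubiquitin ligase that limits activated SMADs, went the other way, from 35.7, 39.5 and 42.4 CPM to 12.7, 12.9 and 11.9 CPM (log2 fold change -1.65, SE 0.070), as did TGIF2, a corepressor, at -1.24 (SE 0.13).

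Genes known to rise with TGF-beta in fibroblasts were not called in a single direction. Of 31 tested, 6 were called higher (TGFBI, KLF10, BHLHE40, IL11, ANGPTL4 and DACT1) and 18 lower (58.1%), with a median of -0.88. The feedback genes SMAD7, SKIL and PMEPA1, all called higher, were counted in the list before and not in this one. The split and the median therefore depend on how the lists were written. The collagen and contractile genes were on the lower side. COL3A1 had 681, 707 and 802 CPM in SCR HDFs and 79.3, 84.7 and 87.1 CPM in TFEB-KD HDFs, a log2 fold change of -3.12 (SE 0.069), next to that of TGFB2 in size. ACTA2, which encodes smooth muscle actin, fell by 0.95 (SE 0.064), CNN1, which encodes calponin, by 1.80 (SE 0.12), and CCN2, a matricellular growth factor, by 0.80 (SE 0.077) on the log2 scale.

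The increases among targets were of different kinds. ANGPTL4, a secreted inhibitor of lipoprotein lipase, was at 12.7, 10.5 and 11.1 CPM in SCR and at 41.7, 37.8 and 38.0 CPM in TFEB-KD HDFs, a log2 fold change of 1.77 (SE 0.074). TGFBI, a matrix protein named for its induction by TGF-beta, was at 644 ± 24.2 CPM (SD, n = 3) in SCR and 862 ± 12.9 CPM (SD, n = 3) in TFEB-KD HDFs, a log2 fold change of 0.42 (SE 0.043). The log2 fold changes of the others were 1.33 for the repressor BHLHE40, 1.26 for the Wnt regulator DACT1, 0.80 for the transcription factor KLF10 and 0.48 for the cytokine IL11. Many of these genes also answer to other signals, and the part of TGF-beta in their values was not tested.

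**Figure D5:**
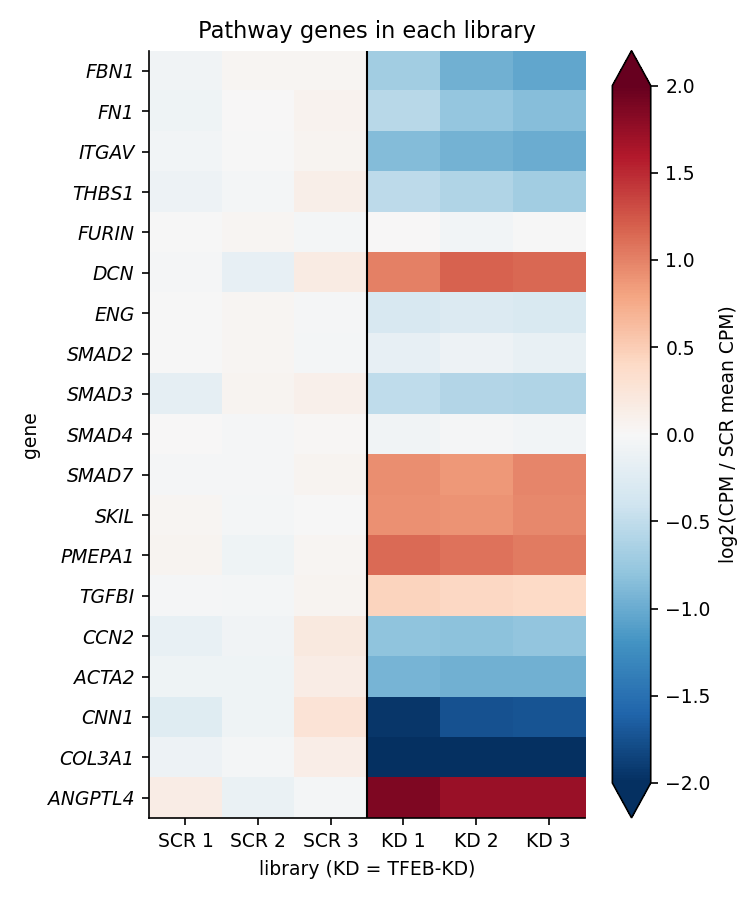
Level of 19 named pathway genes (rows) in each library (columns) as log2 of the CPM over the mean CPM in SCR HDFs, from blue (lower) through white (equal) to red (higher), with colours saturating at an absolute value of 2. Libraries of the same group look alike in every row, with DCN, SMAD7, SKIL, PMEPA1, TGFBI and ANGPTL4 red and FBN1, FN1, ITGAV, THBS1, SMAD3, CCN2, ACTA2, CNN1 and COL3A1 blue in the TFEB-KD libraries.

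The genes whose pattern over the 6 libraries was most like that of TGFB2 were sought among 9249 genes with a mean of at least 10 CPM, by Pearson's r of log2 CPM, as a description with no test. RHBDF2, which encodes an inactive rhomboid protein, had the highest r (0.9998), followed by BDNF, a neurotrophin (0.9997), and by APPL2, an endosomal adaptor, DDAH1, which degrades methylarginines, and FLT1, a VEGF receptor (0.9996 each). Their own log2 fold changes were smaller, at -1.26 for RHBDF2, -1.39 for BDNF, -0.95 for APPL2, -1.95 for DDAH1 and -0.95 for FLT1. The libraries fall into 2 groups, so that any gene which fell evenly has a high r, and 484 genes reached 0.99.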

How the data were processed

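RNA-seq of 3 SCR and 3 TFEB-KD libraries was analysed from the deposited tables. Per the labels, total RNA went into a SMARTer mRNA-seq kit, and the submitters' processing notes name Trim Galore, STAR 2.7.10a, Salmon 1.10.1 and hg38. The authors deposited estimated counts from Salmon, with no scaling between libraries, and TPM, scaled by the authors' pipeline for transcript length and to a common total. The GENCODE release and the use of strand are not given in the sources used here, so reads of overlapping genes are uncertain. A further deposited table with fold changes and p-values of the authors' own comparison was not used. Of the 62754 identifiers, 62700 are in GENCODE 44, which gave coordinates.

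Counts were rounded, filtered by filterByExpr, scaled by TMM and compared in R 4.3.3 with edgeR 4.0.16 (glmQLFit, glmQLFTest, no replicate block), with Benjamini-Hochberg adjustment over the 16931 genes tested. SE is the log2 fold change over the square root of F, and 95% intervals are 1.96 SE wide on each side. TPM sums and shares were compared by exact two-sided permutation tests over libraries. No 2 libraries were copies, since the chi-square per degree of freedom was at least 5.08 for every pair. The code was tested on simulated data for this comparison with 16658 genes, where edgeR recovered 72 of 98 genes changed by 1 and 94 of 99 changed by 2 on the log2 scale, with 9 false calls.

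The 10 genes, the lists and the tests were chosen with earlier results of these data known. Genes named were the 10, TFEB, a fixed set of pathway genes (FURIN, ITGAV, ITGB8, THBS1, FBN1, FN1, ENG, DCN, SMAD2, SMAD3, SMAD4, SMAD7, SKIL, PMEPA1, CCN2, TGFBI and ACTA2), in each pathway list the 3 called genes of largest absolute change without overlap, and the 5 genes most like TGFB2. A gene of the fixed set is not reported here. SMAD6, NRP1, ADAMTS1, PCSK6, BHLHE40, DACT1, KLF10, IL11, DAB2, MAP3K7, HGS and TRIM33 were chosen once their values were known. So were the markers named by their call or level, and EMILIN1, NRROS, ITGB3, MMP2, MMP14, PLAT and PLAU. Alternatives were DESeq2 1.42.0, RLE factors, library sizes alone, other filters, a replicate block, transcript length offsets, limma 3.58.1 on log2(TPM + 1) and log2(TPM + 0.1), and each library left out in turn. Adding the reads of overlapping lncRNAs was chosen after seeing the data.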

Additional observations from a re-analysis of the deposited data

How the results depend on the processing

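TGFB1 and LTBP1 were called higher and TGFB2 lower under all 17 alternatives, with log2 fold changes of 0.62 to 0.74, 0.62 to 0.76 and -3.25 to -1.58. The last value is limma on log2(TPM + 1), where the added 1 is large beside TGFB2. The number called lower among the 10 genes was 1 to 2 with a library left out (2, with LTBP3, without SCR replicate 1). An adjusted p under 0.05 was found for 7 of the 10 with library sizes alone (TGFBR1, adjusted p = 0.00696), 5 with length offsets and 4 on either TPM scale (adjusted p of 0.106 for LTBP3 and 0.550 to 0.553 for LTBP4). Library sizes alone moved the median of all genes to 0.093 and gave 2497 genes higher and 2047 lower, 54.95% higher against 40.04% with TMM, and 2 transducers higher (HGS and TRIM33). limma on log2(TPM + 1) called 1668 genes lower. Called increases among processing and release genes numbered 1 with length offsets and on both TPM scales, when PCSK6 was lost, and 1 to 2 with a library left out. Transducers called lower numbered 2 with length offsets (DAB2) and 1 to 3 with a library left out. ITGB8 was not called by limma (adjusted p = 0.269 and 0.124). Over the alternatives the log2 fold change ran from -3.78 to -1.11 for ASPN, -1.49 to -0.62 for LRRC32 and -1.34 to -0.62 for TGIF2. These genes were called lower in every alternative that tested them. Signs of values near 0 turned for genes that were not called. LTBP2 was at 0.0040 with DESeq2 on the same genes and with RLE factors, 0.0035 with DESeq2 unfiltered, 0.088 with library sizes alone, 6.6e-04 without a filter, 0.014 with at least 10 counts, 0.019 on both TPM scales and -0.032 to 0.047 with a library left out. TGFBR3 was at -0.098 with length offsets, -0.035 and -0.050 on the TPM scales and -0.082 to 0.17 with a library left out. FURIN was at 0.074 with library sizes alone, 3.8e-04 with at least 10 counts, 0.017 on both TPM scales and -0.034 to 0.024 with a library left out, and SMAD4 at 0.038 with library sizes alone. With CPM in place of TPM, which weights longer transcripts more, the differences in share were 5.15 percentage points for TGFB1, -4.87 for TGFB2, -6.68 for LTBP2, -4.42 for LTBP3 and -0.84 for LTBP4. The cause of these shifts was not tested. Replicate numbers did not pair the samples (correlations of -0.131, 0.0331 and -0.0142 between same-numbered libraries), and with a replicate block 1595 genes were higher and 2450 lower, with 2 and 1 of the 10 genes, and no call among them or in the pathway lists changed. Depth limits TGFB3, ITGB8 and ASPN, whose lowest libraries hold 38, 3 and 9 counts.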

Other observations

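Reads were looked at for 3 of the lncRNAs that overlap ligand genes. TGFB2-AS1, which lies on the strand opposite TGFB2 across its start site, had estimated counts of 14.0, 2.9 and 6.9 in SCR HDFs and 0 in each TFEB-KD library. TGFB2-OT1 had 29.2 in SCR replicate 2 and 0 in the other 5 libraries. ENSG00000286177, inside TGFB1 on the same strand, had 147, 106 and 135 in SCR HDFs and 147, 609 and 192 in TFEB-KD HDFs, so that TFEB-KD replicate 2 stood apart, against 8400 to 18768 counts for TGFB1 itself. Protein-coding genes on the opposite strand also overlap TGFB1 (HNRNPUL1, CCDC97, TMEM91 and ENSG00000255730) and TGFB3 (IFT43, beside the lncRNA TGFB3-AS1), and their reads were not looked at here. These values were not tested, and without strand in the counting reads of opposite genes cannot be assigned with certainty.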
